A study of Mus musculus with 10 samples.

Results

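The heat shock chaperones described here are 10 genes, Hspb1, Hspa1a, Hspa1b, Hsph1, Dnajb1, Hspa8, Hsp90aa1, Hspd1, Hspe1 and Hspa5, followed across 10 arrays of mouse optic nerve head. They were found by exact gene symbol in the platform annotation, which gave 22 of the 22690 probe sets of the table, and all 10 genes had at least 1. Each array held RNA from a pool of 2 nerve heads of C57Bl/6 male mice aged 6 to 8 weeks. In 5 pools, called elevated pressure here and high IOP in the labels, the right eye had been cannulated and kept at 30 mmHg for 1 h, and tissue was collected 3 days later. The 5 control pools came from left eyes that were not operated on. All mice had therefore undergone the operation on 1 side, and the cannulation, the side of the body and the pressure cannot be told apart. Pooling also hides differences between the nerve heads of 1 array, and in such bulk tissue a change in the number of cells of a type and a change in RNA per cell cannot be told apart.

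Heat shock proteins are chaperones that bind unfolded or newly made proteins and help them fold, or pass them on for degradation. Cells under proteotoxic stress activate heat shock factor 1, a transcription factor that binds repeats of a short element in the promoters of these genes and raises their transcription within minutes to hours. The endoplasmic reticulum has a separate system, the unfolded protein response, of which Hspa5 is the best known target. In the eye, Hspb1 is known as a stress-induced protein of astrocytes and retinal ganglion cells, and chaperones have been studied there as a defence of axons against raised pressure. The comparison asks whether these genes differed in this tissue 3 days after a short rise of pressure.

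Glial genes marked the tissue on all arrays, with intensities of Gfap, the astrocyte filament protein, between 10644 and 12631 and of the myelin gene Mbp between 13490.3 and 15433. Some other glial genes were lower in elevated pressure replicate 1. There the astrocyte water channel gene Aqp4 read 2999 against 4402 to 6860.0 on the 8 arrays that were not replicate 1 of a group. The myelin gene Mag read 733 against 1700.4 to 4402. Mean log2 deviation of the astrocyte markers there was -0.079, inside the range of those 8 arrays (-0.083 to 0.128). That of the oligodendrocyte markers was -0.79, below their range (-0.17 to 0.39). The median intensity of the arrays lay between 414 and 475. Elevated pressure replicate 1 stood apart from the other arrays. Its mean correlation with the others was 0.974, against 0.986 to 0.989 for them, and its Gapdh end ratio, that of a control probe set at the 3' end of the RNA over one at the 5' end, was 2.07 against 1.53 to 1.73. Its actin end ratio, 2.10, was not the highest, which was 2.13 in elevated pressure replicate 4. The chaperone values are given with and without it.

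The promoters were searched for known stress elements, and several with a match are printed below. Of the 10 genes, 8 had a promoter window in the RefSeq table (build GRCm38.p6), and Hspa8 and Hsp90aa1 did not. The 250 bases before the start site were searched on both strands for paired units of the heat shock element, GAANNTTC and TTCNNGAA, and for the endoplasmic reticulum stress element. A heat shock pair was found in 6 genes, Hspa1a, Hspa1b, Hspb1, Hsph1, Hspd1 and Hspe1, and in 14.5% of all 27025 genes (12.8% of all 32851 windows). GAANNTTC alone was in 6.69% and TTCNNGAA in 7.17% of them, and the 2 motifs can overlap. The windows of Dnajb1 held none of the 3 motifs. The endoplasmic reticulum stress element was found in Hspa5 alone of the 8 genes and in 0.130% of all genes (0.113% of all windows). A match is a description of these letters and not a shown binding site. A window without a match does not show that the gene lacks the element.

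The Hspa1a sequence below runs from 250 bases before the start site to the base before it (chr17:34972157-34972406, minus strand). The window of Hspa1b at the same place differed from it at 3 of 250 bases, and the transcripts of the genes were not compared. Hspd1 and Hspe1 lie head to head on chromosome 1, and 1 shared stretch between their start sites (chr1:55088053-55088082, plus strand as printed) holds 3 overlapping pairs, read from either side. Short stretches of Hspb1 (chr5:135887795-135887836, plus strand) and Hsph1 (chr5:149636351-149636380, minus strand) show their heat shock pairs, and Hspa5 is given in full (chr2:34771840-34772089, plus strand). Capitals mark the fixed letters of the motifs.
Hspa1a: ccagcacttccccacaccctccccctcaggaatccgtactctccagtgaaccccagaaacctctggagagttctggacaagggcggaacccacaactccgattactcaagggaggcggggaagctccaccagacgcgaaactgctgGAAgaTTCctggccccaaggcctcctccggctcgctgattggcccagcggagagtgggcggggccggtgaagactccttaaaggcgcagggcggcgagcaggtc
Hspb1: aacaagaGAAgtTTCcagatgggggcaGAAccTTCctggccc
Hspd1 and Hspe1: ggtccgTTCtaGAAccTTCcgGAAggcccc
Hsph1: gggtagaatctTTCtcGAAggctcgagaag
Hspa5: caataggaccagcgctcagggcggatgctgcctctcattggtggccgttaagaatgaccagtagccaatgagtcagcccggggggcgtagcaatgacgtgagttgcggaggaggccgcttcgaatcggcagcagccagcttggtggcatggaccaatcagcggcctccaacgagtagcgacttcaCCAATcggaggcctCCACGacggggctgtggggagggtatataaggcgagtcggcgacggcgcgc

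Between the groups, none of the 10 chaperones passed the test 3 days after elevated pressure. Of the 10 genes, 4 had a log2 fold change above 0 and 6 one below 0, with a median of -0.0026, where 47.3% of all 12393 genes lay above and 52.7% below 0 and their median was -0.01. At a limma adjusted p under 0.05, 0 of the 10 genes were called, as were 0 of all genes (0%). At an unadjusted p under 0.05 the count was also 0 of 10, where 3.97% of all genes reached it, and the smallest unadjusted p among the 10 was 0.205, for Hspb1. For 9 of the 10 genes both ends of the 95% confidence interval were below 1.5-fold, up or down, and for 4 of them (Hspa8, Hsp90aa1, Hspd1 and Hspe1) below 1.2-fold. These counts are for the brightest probe set of each gene. In dimmer probe sets of Hsph1 and Hspa1b the lower end lay beyond 1.5-fold. The log2 interval ran from -0.77 to 0.29 for Hsph1 1423566_a_at. It ran from -0.70 to 0.14 for Hspa1b 1427126_at and from -1.31 to 0.27 for Hspa1b 1427127_x_at. In all 22 probe sets the groups overlapped, and 0.663% of all 22626 probe sets had groups that did not. Without replicate 1 of both groups, an alternative chosen after seeing the data, 7 of the 10 genes lay above 0 (median 0.02), where 52.4% of all genes did, and again 0 of 10 reached an unadjusted p under 0.05 (3.03% of all genes). With the Gapdh end ratio as a covariate the log2 fold changes of Hspa1a, Dnajb1 and Hspa5 turned from above to below 0, to -0.14, -0.10 and -0.11, and that of Hspe1 from below to above 0, to 0.02, all uncalled.

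**Figure D1:**
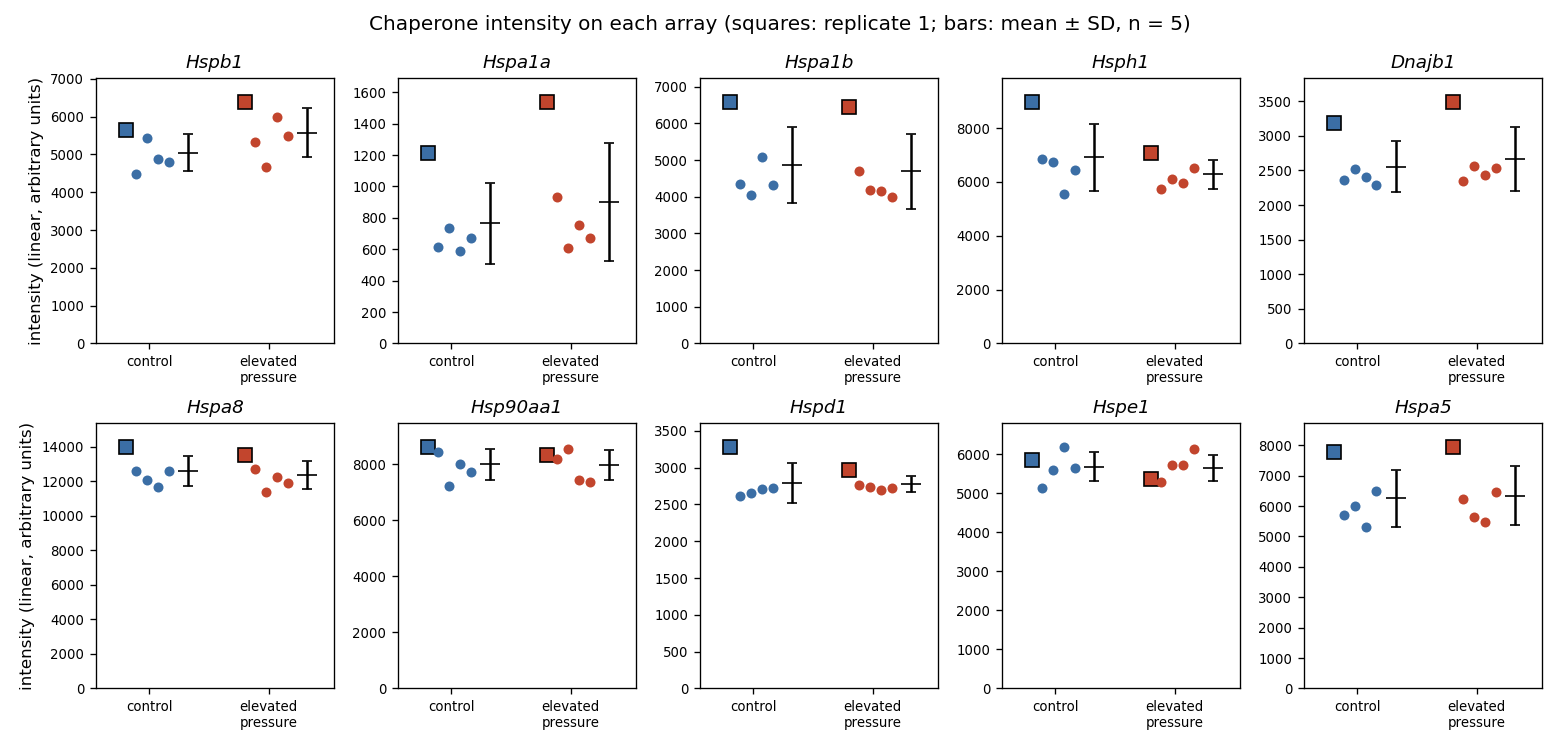
Intensity of the brightest probe set of each chaperone (y axis, linear, arbitrary units, from 0) in the 5 control pools (blue) and the 5 elevated pressure pools (red), in order of replicate number, with the mean and SD of each group (black, n = 5). Squares are replicate 1 of each group, which lie above the other 8 arrays in 7 of the 10 panels, Hspa1a among them at 1213 and 1535.

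The inducible Hsp70 genes were highest in replicate 1 of both groups. Hspa1a, which encodes the Hsp70 that cells make under stress, had intensities of 1213, 614, 733, 588 and 672 in control replicates 1 to 5, and 1535, 933, 610.4, 754 and 674 in elevated pressure replicates 1 to 5. Replicate 1 was the highest array in each group, and the remaining 8 arrays shared a range from 588 to 933. Mean intensity of Hspa1a was 764 ± 257 (SD, n = 5) in the control pools and 901 ± 374 (SD, n = 5) in the pools with elevated pressure. For Hspa1a the fitted log2 difference was 0.20, with an SE of 0.263 and a 95% interval from -0.38 to 0.78 (limma adjusted p = 0.874). That interval was the widest of the 10 genes and left room for a change of 1.72-fold. The log2 fold change was -0.01 without elevated pressure replicate 1, 0.38 without control replicate 1 and 0.17 without both. The within-group SD of Hspa1a, 0.470 on the log2 scale, was larger than that of 91.0% of the 500 genes nearest to it in mean. On that measure Hspa1b (93.8%), Hsph1 (91.6%) and Hspa5 (91.2%) ranked as high, Hspb1 (72.8%), Dnajb1 (69.2%), Hspa8 (59.6%) and Hsp90aa1 (54.4%) lay nearer the middle, and Hspe1 (27.4%) and Hspd1 (14.8%) varied less than most genes of like mean.

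Hspa1b encodes a nearly identical Hsp70 and lies beside Hspa1a on chromosome 17. Probes for either gene may therefore read both, which was not tested, and their values cannot be taken as independent. Its brightest probe set, 1452318_a_at, read 6569, 4335, 4033, 5073 and 4324 in control replicates 1 to 5, and 6442, 4696, 4177, 4149 and 3987 in elevated pressure replicates 1 to 5. Again both replicate 1 arrays lay above all others, and the groups overlapped. Mean intensity of Hspa1b was 4867 ± 1026 (SD, n = 5) in the control pools and 4690.0 ± 1015 (SD, n = 5) in the pools with elevated pressure. For Hspa1b the fitted log2 difference was -0.05, with an SE of 0.165 and a 95% interval from -0.42 to 0.31 (limma adjusted p = 0.952). Without control replicate 1 the log2 fold change was 0.06, and without elevated pressure replicate 1 it was -0.17.

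In a dim Hspa1b probe set the replicate 1 pools differed from each other. Probe set 1427127_x_at read 433, 100.5, 135, 159 and 197 in control replicates 1 to 5, and 109.6, 148, 172, 155 and 56.9 in elevated pressure replicates 1 to 5. Control replicate 1 was 433, more than every other array, while elevated pressure replicate 1 fell inside the range of the rest. Probe set 1427126_at read 984 in control replicate 1 and 685 in elevated pressure replicate 1, against 398 to 619 on the other 8. The log2 fold changes of these probe sets were -0.52 and -0.28, with intervals from -1.31 to 0.27 and from -0.70 to 0.14, and neither was called (adjusted p = 0.837 for each in the limma fit over all probe sets). The x in the name of a probe set marks probes that can match other transcripts. It is also in the names of the brightest Hspa8 probe set, 1455789_x_at, of Hspa8 1420623_x_at and of Hspb1 1425964_x_at.

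Dnajb1, the J-domain protein that delivers clients to Hsp70 and starts its ATPase cycle, was highest in the same pools as Hspa1a. Its values were 3190.0, 2362, 2527, 2407 and 2284.5 in control replicates 1 to 5, and 3482, 2340.2, 2565, 2435 and 2534 in elevated pressure replicates 1 to 5. Both replicate 1 arrays lay at or above 3190.0 and the other 8 between 2284.5 and 2565, so that within each group 1 pool set most of the spread. Mean intensity of Dnajb1 was 2554 ± 366 (SD, n = 5) in the control pools and 2671 ± 462 (SD, n = 5) in the pools with elevated pressure. For Dnajb1 the fitted log2 difference was 0.06, with an SE of 0.129 and a 95% interval from -0.22 to 0.34 (limma adjusted p = 0.924). The dimmer probe set 1416756_at showed the same order at the top, with 475 in control replicate 1, 480.1 in elevated pressure replicate 1 and 248 to 338 elsewhere. The log2 fold change was -0.04 without elevated pressure replicate 1 and 0.14 without control replicate 1.

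Hsph1 encodes an Hsp110, a large relative of Hsp70 that exchanges its nucleotide and keeps aggregates soluble. Its brightest probe set read 8952, 6845, 6759, 5557 and 6439 in control replicates 1 to 5, and 7089.8, 5750.2, 6104, 5961 and 6525 in elevated pressure replicates 1 to 5. Control replicate 1 was well above all other arrays, and elevated pressure replicate 1, the next highest, was close to the control pools 2 and 3. Mean intensity of Hsph1 was 6911 ± 1249.9 (SD, n = 5) in the control pools and 6286 ± 531 (SD, n = 5) in the pools with elevated pressure. For Hsph1 the fitted log2 difference was -0.12, with an SE of 0.122 and a 95% interval from -0.39 to 0.15 (limma adjusted p = 0.850). The dimmer probe set 1423566_a_at read 1299 in control replicate 1, 726 in elevated pressure replicate 1 and between 445 and 652 on the other arrays. Without control replicate 1 the log2 fold change of the brightest probe set was -0.03.

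Hspb1, the small heat shock protein Hsp25 of the mouse, holds unfolded proteins without ATP and binds actin filaments. Its values were 5660.3, 4485, 5436, 4873 and 4788 in control replicates 1 to 5, and 6376, 5327, 4677, 5983 and 5491 in elevated pressure replicates 1 to 5. Elevated pressure replicate 1 was the highest array and elevated pressure replicate 4 the next, and 4 of the 5 control pools lay within the elevated pressure range. Mean intensity of Hspb1 was 5048 ± 485 (SD, n = 5) in the control pools and 5571 ± 649 (SD, n = 5) in the pools with elevated pressure. For Hspb1 the fitted log2 difference was 0.14, with an SE of 0.103 and a 95% interval from -0.09 to 0.37 (limma adjusted p = 0.849). The second probe set, 1425964_x_at, gave a log2 fold change of 0.15, and its smallest and largest arrays were control replicate 4 at 4174 and elevated pressure replicate 1 at 5697. The log2 fold change of Hspb1 stayed above 0 in each of the 22 alternatives, from 0.09 without elevated pressure replicate 1 to 0.20 without elevated pressure replicate 3 when 1 array was left out. It was 0.03 with the Gapdh end ratio as a covariate, and its smallest adjusted p under any of them was 0.561.

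The abundant cytosolic chaperones had within-group SDs near 0.1 on the log2 scale, 0.0953 for Hspa8 and 0.0991 for Hsp90aa1, close to the middle of genes of like mean. Hspa8, the constitutive Hsp70 that also uncoats clathrin vesicles, had intensities of 13959.5, 12625, 12062, 11685 and 12626 in control replicates 1 to 5, and 13544, 12721, 11409, 12258 and 11927 in elevated pressure replicates 1 to 5. The replicate 1 arrays were again the highest of each group, but by small margins. Mean intensity of Hspa8 was 12591 ± 863 (SD, n = 5) in the control pools and 12372 ± 811 (SD, n = 5) in the pools with elevated pressure. For Hspa8 the fitted log2 difference was -0.03, with an SE of 0.0787 and a 95% interval from -0.20 to 0.15 (limma adjusted p = 0.953). Its 3 other probe sets had log2 fold changes of -0.01, -0.01 and 0.02, the last from a dim probe set that did not exceed 288 on any array.

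Hsp90aa1, the stress-inducible form of cytosolic Hsp90, which matures kinases and steroid receptors, read 8591, 8414, 7217, 8010.2 and 7734 in control replicates 1 to 5, and 8334, 8188, 8553, 7438 and 7372 in elevated pressure replicates 1 to 5. The groups covered nearly the same range and replicate 1 did not stand out in the elevated pressure group. Mean intensity of Hsp90aa1 was 7993 ± 549 (SD, n = 5) in the control pools and 7977 ± 538 (SD, n = 5) in the pools with elevated pressure. For Hsp90aa1 the fitted log2 difference was -0.0028, with an SE of 0.08 and a 95% interval from -0.18 to 0.17 (limma adjusted p = 0.996). Its other probe sets disagreed in sign, with 0.05 for 1437497_a_at and -0.06 for 1426645_at. In 1426645_at both replicate 1 arrays were the highest, at 4217 and 3839, and in 1437497_a_at elevated pressure replicate 1 was, at 8206.

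Hspd1 and Hspe1 encode Hsp60 and Hsp10, the barrel and the lid of the mitochondrial chaperonin, and share the promoter stretch printed above. Hspd1 read 3274, 2615, 2652, 2704 and 2717 in control replicates 1 to 5, and 2967, 2763, 2739, 2701 and 2726 in elevated pressure replicates 1 to 5. Outside the replicate 1 pools the 8 arrays kept within 2615 to 2763, and both replicate 1 arrays exceeded them. Mean intensity of Hspd1 was 2792 ± 272 (SD, n = 5) in the control pools and 2779 ± 107 (SD, n = 5) in the pools with elevated pressure. For Hspd1 the fitted log2 difference was -0.0025, with an SE of 0.0808 and a 95% interval from -0.18 to 0.18 (limma adjusted p = 0.996).

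Hspe1, in contrast, read 5845, 5151, 5596, 6177 and 5638 in control replicates 1 to 5, and 5372, 5282, 5736, 5735 and 6136 in elevated pressure replicates 1 to 5. Its highest array was control replicate 4, and elevated pressure replicate 1 was the third lowest of the 10. Mean intensity of Hspe1 was 5681 ± 375 (SD, n = 5) in the control pools and 5652 ± 341 (SD, n = 5) in the pools with elevated pressure. For Hspe1 the fitted log2 difference was -0.01, with an SE of 0.0771 and a 95% interval from -0.18 to 0.16 (limma adjusted p = 0.990). The dimmer Hspe1 probe set gave a log2 fold change of -0.02, with its highest value, 2319, in elevated pressure replicate 3. The chaperonin genes differed in which pools were highest, and the difference between them was not tested.

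Hspa5 encodes BiP, the Hsp70 of the endoplasmic reticulum and sensor of its unfolded protein response. Its values were 7763, 5695, 5999, 5316 and 6481 in control replicates 1 to 5, and 7927, 6229, 5635, 5467 and 6455 in elevated pressure replicates 1 to 5. Both replicate 1 arrays lay above the others, which lay between 5316 and 6481. Mean intensity of Hspa5 was 6251 ± 947 (SD, n = 5) in the control pools and 6343 ± 975 (SD, n = 5) in the pools with elevated pressure. For Hspa5 the fitted log2 difference was 0.02, with an SE of 0.129 and a 95% interval from -0.26 to 0.31 (limma adjusted p = 0.978). The other probe set, 1416064_a_at, had a log2 fold change of -0.0042 and read 6725 and 6613 in the replicate 1 pools of control and elevated pressure. Without elevated pressure replicate 1 the log2 fold change of Hspa5 was -0.06, and without control replicate 1 it was 0.10.

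**Figure D2:**
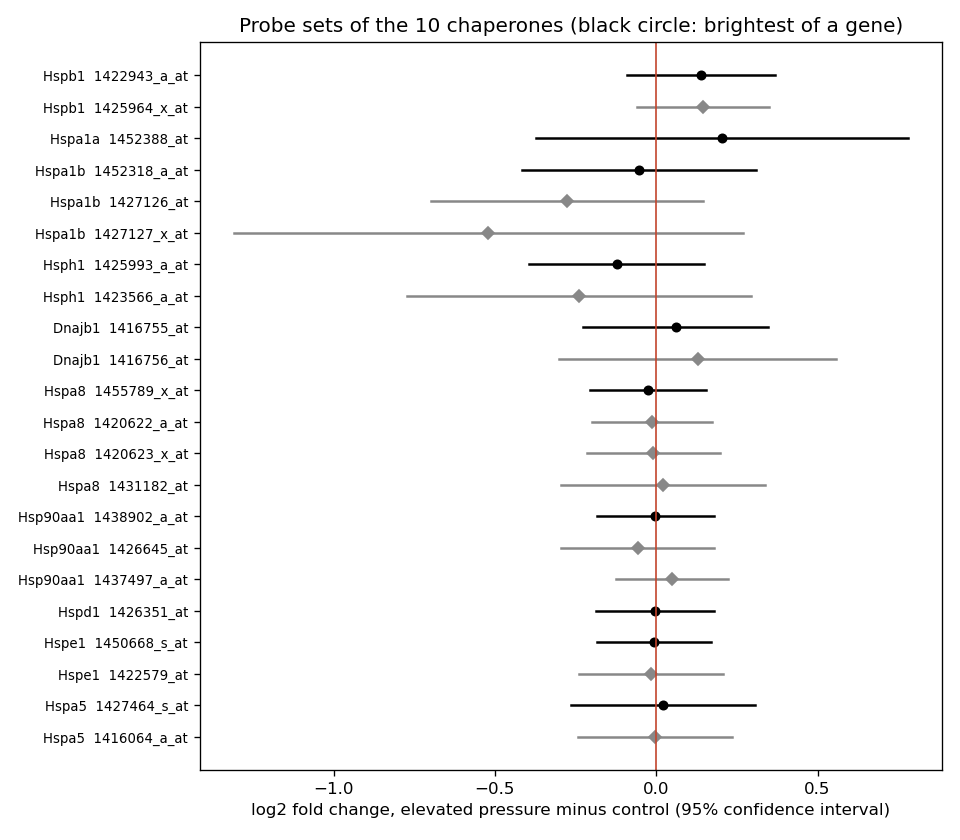
Log2 fold change (x axis, elevated pressure minus control) of each of the 22 probe sets (y axis, gene and probe set) with its 95% confidence interval from the limma fit over all probe sets. Every interval includes 0, and the widest, of Hspa1b 1427127_x_at, runs from -1.31 to 0.27.

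Across genes, the high values came from the same pools. Control replicate 1 and elevated pressure replicate 1 were the highest 2 of the 10 arrays in 7 of the 10 chaperone genes (Hspa1a, Hspa1b, Hsph1, Dnajb1, Hspa8, Hspd1 and Hspa5) and in 14 of their 22 probe sets. The same held for 445 of all 12393 genes (3.59%) and for 3.78% of all probe sets. The exceptions were Hspb1, Hsp90aa1 and Hspe1. The pattern was noticed in these values, so the counts are a description with no test. Control replicate 1 was the highest array in 5 of the genes and elevated pressure replicate 1 in 4.

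The sizes differed between the replicate 1 pools. Relative to the mean over 10 arrays, Hspa1a was higher by 0.61 on the log2 scale in control replicate 1 and by 0.94 in elevated pressure replicate 1, whereas Hsph1 was higher by 0.45 and 0.12. Hspa1b (0.48 and 0.45) and Hspa5 (0.31 and 0.34) were nearly equal in both. Averaged over the 10 genes, the deviation was 0.28 in each of these pools and between -0.10 and -0.01 in the other 8.

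**Figure D3:**
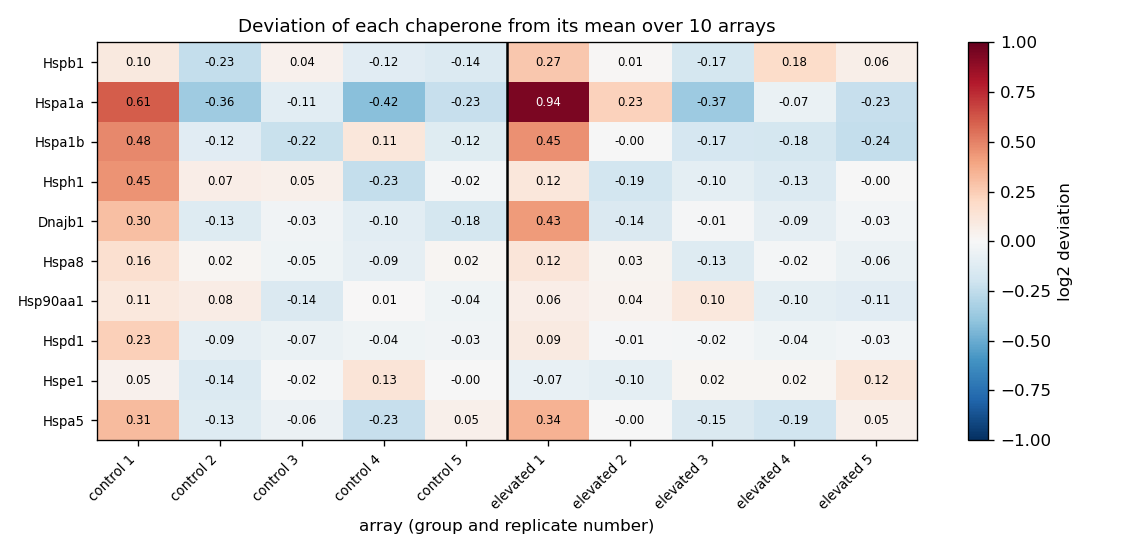
Log2 deviation of each chaperone (rows) from its own mean over the 10 arrays (columns, control left of the line and elevated pressure right of it), with the value printed in each cell. Replicate 1 of both groups held the 2 highest values in 7 of the 10 genes, up to 0.94 for Hspa1a. In Hspb1, Hsp90aa1 and Hspe1 the replicate 1 arrays were not both among the highest 2.

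Correlations among the chaperones were taken over the other 8 arrays only, as a description with no test, because in Hspa1b and Hspa5 the replicate 1 arrays lay apart from the rest. Over all probe sets the deviations of those 2 arrays from their group means correlated at -0.05. Whether the 2 arrays shared a source of their high chaperone values was not tested. Pearson's r with Hspa1b ran from -0.72 for Hsph1 to 0.47 for Hsp90aa1, and that of Hspa1a was -0.03. Spearman's rho ran from -0.64 to 0.64. With Hspa5, r ran from -0.37 for Hspa1b to 0.44 for Hspa8, and rho from -0.33 to 0.52. With 8 arrays these values have low precision, and probes for Hspa1a and Hspa1b may read both genes.

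Genes outside the list were ranked by their Pearson correlation with Hspa1b over the 10 arrays, and the nearest 6 were Ifi47, Arhgap9, Phtf2, Rps4x, Cacybp and Irgm2. All had their highest 2 values in the replicate 1 pools. The replicate 1 arrays were the farthest from the rest in Hspa1b and were part of the ranking. Sharing them follows from that choice and is no separate result. Ifi47, an interferon-inducible GTPase, read 4913 and 4864 in the replicate 1 pools of control and elevated pressure against 2023 to 3007 on the other arrays. Cacybp, which encodes a partner of ubiquitin ligase complexes, read 2925 and 2810.3 in the replicate 1 pools of control and elevated pressure against 2199 to 2602 on the other arrays. Over the other 8 arrays their r with Hspa1b was 0.51 for Ifi47, 0.65 for Arhgap9, 0.89 for Phtf2, 0.49 for Rps4x, 0.53 for Cacybp and 0.60 for Irgm2. Spearman's rho was 0.21 for Ifi47, 0.12 for Cacybp and 0.52 for each of the other four.

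The genes nearest to Hspa5 were Pdia6, Tubb4b, Cytip, Pdlim1, Mapk14 and Lrrc59. Pdia6, a protein disulfide isomerase of the endoplasmic reticulum, read 2823 and 3306 in the replicate 1 pools of control and elevated pressure against 1900.1 to 2639.7 on the other arrays, and its r with Hspa5 over those 8 arrays was 0.93. The kinase gene Mapk14 had 0.94, the tubulin gene Tubb4b 0.88, and Cytip, Pdlim1 and Lrrc59 had 0.80, 0.77 and 0.75. Spearman's rho was 0.95 for Pdia6, 0.86 for Mapk14 and Tubb4b, 0.76 for Lrrc59, 0.69 for Pdlim1 and 0.52 for Cytip. The genes were chosen by this likeness, so the values only describe these arrays, whose pools differ in tissue content and RNA end ratio as well.

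Partners of the chaperones were taken from 8 lists of 134 measured genes, of which 69 had a log2 fold change above 0 and 65 one below 0. By the limma test 0 were called, and 5 reached an unadjusted p under 0.05, all higher after elevated pressure, beside 3.97% of all genes in either direction and 2.65% in this one. These were Trib3, a stress-induced pseudokinase (log2 fold change 0.70), Derl3, of endoplasmic reticulum degradation (0.38), the Hsp70 relative Hspa12b of endothelium (0.31), the Hsp90 co-chaperone Unc45a (0.31) and the immediate early gene Junb (0.45), each at a limma adjusted p of 0.849. Without replicate 1 of both groups, 1 of the 134, an immediate early gene, reached an unadjusted p under 0.05, beside 3.03% of all genes, and the differences were 0.68 for Trib3, 0.33 for Derl3, 0.28 for Hspa12b, 0.22 for Unc45a and 0.50 for Junb. Trib3 had means of 124 ± 43.9 (SD, n = 5) in the control pools and 203 ± 46.1 (SD, n = 5) in those with elevated pressure. The difference ran from 0.44 to 0.83 when 1 array was left out.

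Within the cytosol, 13 of 25 other Hsp70, Hsp40, Hsp90 and exchange factor genes were above 0 (median 9.3e-05), with the J-protein gene Dnajb6 at -0.18 and the testis Hsp70 gene Hspa1l at 0.16. Of the Hsp90 co-chaperones 7 of 11 were above 0 (median 0.03), with Tsc1 at 0.22, where another probe set stood at -0.10, and the phosphatase gene Ppp5c at 0.18. Heat shock factors and their regulators had 3 of 7 above 0 (median -0.01), with the deacetylase genes Sirt1 at -0.29 and Hdac6 at 0.12 and the factor Hsf4 at -0.12. Without replicate 1 of both groups the differences were smaller, at -0.03 for Dnajb6, 0.12 for Tsc1, 0.06 for Ppp5c, -0.09 for Sirt1, 0.04 for Hdac6 and -0.05 for Hsf4. None of these was called.

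Of the other small heat shock proteins 3 of 7 were above 0 (median -0.07). Hspb7, of heart and muscle, was dim and stood at 0.50, the abundant Cryab, which encodes alpha-B-crystallin, at -0.08, and the lens gene Cryaa at -0.23. Mitochondrial chaperones and proteases had 7 of 13 above 0 (median 0.01), with the protease gene Lonp1 at 0.23, the exchange factor Grpel2 at 0.11 and the unfoldase gene Clpx at -0.22. The endoplasmic reticulum list had 15 of 32 above 0 (median -0.01), with Pdia3 at -0.19. The TRiC and prefoldin list had 8 of 14 above 0 (median 0.03), with the prefoldin genes Pfdn6 at 0.12, Vbp1 at -0.22 and Pfdn2 at -0.69. Pfdn2 ran from -1.004 to -0.15 when 1 array was left out, and Cryaa from -0.39 to 0.08, which changes its sign. Without replicate 1 of both groups the differences were -0.06 for Pfdn2, -0.03 for Vbp1, -0.04 for Pdia3, -0.09 for Clpx, 0.14 for Lonp1, 0.30 for Hspb7 and -0.47 for Cryaa. Of the immediate early genes, which respond within an hour to many stimuli, 13 of 25 were above 0 (median 0.01), with Ier2 at 0.26 and Maff at 0.35.

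Both replicate 1 pools were the highest arrays in 15 of these 134 genes, beside 3.59% of all genes. In the cytosolic list these were 5 of 25, among them the J-protein gene Dnaja1 (5022 and 5693 against 3708 to 4168 on the other 8 arrays), Hspa4, an Hsp110 relative (5917 and 6117 against 4552 to 5417), and Bag3, a co-chaperone of selective autophagy (3458 and 3407 against 2353 to 3168). Among Hsp90 co-chaperones they were 3 of 11, namely Chordc1 (4733 and 4285 against 3203 to 3643), Stip1, which links Hsp70 to Hsp90 (1634 and 1546 against 1096 to 1355), and the immunophilin gene Fkbp4 (1080.2 and 1291 against 863 to 1033). The endoplasmic reticulum list had 3 of 32 (Hyou1, Pdia6 and Xbp1), TRiC and prefoldin 2 of 14 (Cct3 and Cct4) and the heat shock factor list 2 of 7 (Vcp and Mllt11). In the small heat shock, mitochondrial and immediate early lists the counts were 0 of 7, 0 of 13 and 0 of 25. Mean deviations of whole lists did not all follow these genes. In replicate 1 of control and elevated pressure, Hsp90 co-chaperones stood at 0.095 and 0.216, above the other 8 arrays. The cytosolic (0.089 and -0.006) and endoplasmic reticulum lists (0.155 and -0.006) were above them in control only. TRiC and prefoldin stood at 0.094 and -0.231, the latter the lowest array. Heat shock factors stood at -0.035 and -0.089, below the other 8 (-0.033 to 0.066).

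**Figure D4:**
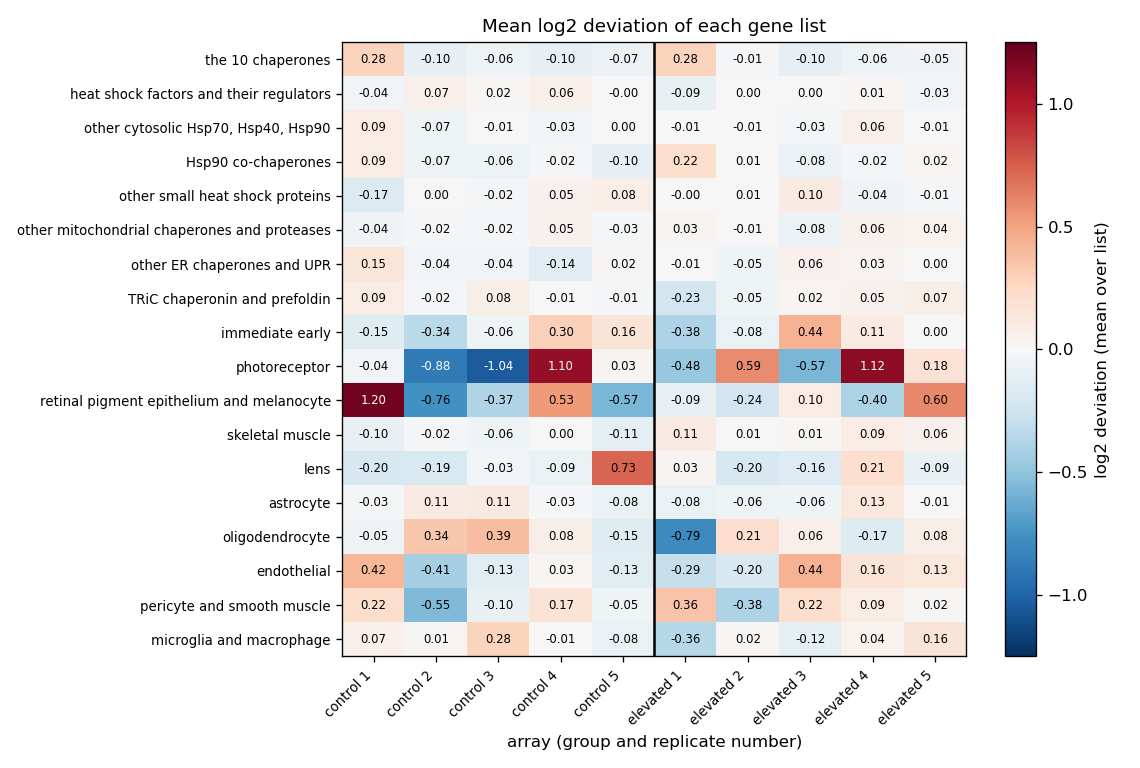
Mean log2 deviation of each gene list (rows, the 10 chaperones first, then partner and stress lists and cell type markers) on each array (columns, control left of the line and elevated pressure right of it). The chaperones reach 0.28 in replicate 1 of both groups, while pigment markers are highest in control replicate 1 (1.204) and oligodendrocyte markers lowest in elevated pressure replicate 1 (-0.79).

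Cell type markers were examined for the same pattern. Of 105 measured marker genes of 9 cell types, 2 (Des and Tie1) had both replicate 1 pools as the highest arrays, beside 3.59% of all genes. By limma 0 of the 105 were called between the groups and 6 reached an unadjusted p under 0.05, among them 3 of 12 endothelial genes, all higher after elevated pressure, beside 3.97% of all genes in either direction and 2.65% in this one. The median log2 fold change of the 12 endothelial genes was 0.07, or 0.26 without replicate 1 of both groups. Without those arrays 4 of the 12 reached an unadjusted limma p under 0.05, beside 3.03% of all genes. Of the oligodendrocyte genes 9 of 9 had a log2 fold change below 0 (52.7% of all genes). Their median was -0.15, or -0.07 without replicate 1 of both groups. Of the photoreceptor genes 13 of 15 had one above 0 (47.3% of all genes), with a median of 0.22, or 0.58 without those arrays. Skeletal muscle markers had mean deviations from -0.11 to 0.0035 in control and from 0.0096 to 0.11 in elevated pressure pools. The groups did not overlap, by a narrow margin, and in every other marker list they did. Of all single probe sets 0.663% had groups that did not overlap, but no such share was taken for list means. Each replicate 1 pool was however at an extreme of some markers. Pigment cell markers stood at 1.204 in control replicate 1, the highest of the 10 arrays, and at -0.09 in elevated pressure replicate 1. Oligodendrocyte markers stood at -0.05 and -0.79, the latter the lowest of the 10. Markers of pericytes and smooth muscle stood at 0.22 and 0.36, against -0.55 to 0.22 on the other arrays. Immediate early genes stood at -0.15 and -0.38, inside or below the range of the others (-0.34 to 0.44). The Gapdh end ratio was 1.57 in control replicate 1 and 2.07 in elevated pressure replicate 1. The part of tissue content or RNA quality in the chaperone values was not tested.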

How the data were processed

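RNA was amplified with the Ovation V2 kit from 30 ng and hybridised to arrays, per the labels. The authors deposited 1 intensity per probe set and array on a linear scale, from 0.69 to 20168. Summarisation and background steps: not given in the sources used here, nor is the scaling. Of 22690 probe sets, 64 controls were left out, 20380 had 1 symbol, 691 several and 1555 none in the platform annotation. Each gene was represented by its probe set with the highest mean, which gave 12393 genes with no filter on dim values. Values were tested as log2(intensity + 16) with limma 3.58.1 in R 4.3.3 (lmFit, eBayes, Benjamini-Hochberg adjustment over all genes or, for single probe sets, over all 22626), and intervals are at 95%. Figures and summaries used Python 3.11.15. The text names all 10 members, the 3 genes of each list with the smallest p, and the 6 nearest to Hspa1b and to Hspa5; genes with both replicate 1 arrays highest were named after their values were seen. The members and lists were chosen with earlier results of these data known. Alternatives changed the pseudocount (to 1), scaling, probe set rule, dim filter, covariates, block and arrays. The labels do not say whether equal replicate numbers came from the same mice.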

Additional observations from a re-analysis of the deposited data

Results flagged for a closer look

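Within each group of 5 arrays, the highest or lowest array was compared with its nearest neighbour relative to the range of the group, and 5 of 44 such groups of chaperone probe sets had an array beyond Dixon's critical value of 0.71. For independent groups chance gives about 1 in 20, but these groups share arrays and genes, and the high values of the replicate 1 arrays were known before, so the count is a description. Control replicate 1 was that array in 2 of them and elevated pressure replicate 1 in 3. Dnajb1 read 3481.89 in elevated pressure replicate 1, against 2340.2 to 2565 in the other elevated pressure pools. The Hspa8 probe set 1420622_a_at read 12115.6 in elevated pressure replicate 1, against 9969 to 10544. Hspd1 read 3273.87 in control replicate 1, against 2615 to 2717 in the other control pools, and 2967.15 in elevated pressure replicate 1, against 2701 to 2763. The dimmer Hsph1 probe set 1423566_a_at read 1298.57 in control replicate 1, against 499 to 652.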

How the results depend on the processing

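No gene was called by limma in the main fit or in any of the 22 alternatives. The number of genes at an unadjusted p under 0.05 was 492 in the main fit, 298 with the Gapdh end ratio as a covariate and 1004 when all probe sets were tested, a larger table. It ran from 368 to 1044 when 1 array was left out, the highest without elevated pressure replicate 3. Of 220 chaperone values under the alternatives, 34 changed sign and 0 were called. Hspb1 and Hsph1 were the 2 genes that kept their sign throughout. With the Gapdh covariate the log2 fold change was -0.14 for Hspa1a, -0.099 for Dnajb1, 0.021 for Hspe1 and -0.11 for Hspa5. With quantile normalization it was 0.016 for Hspa8, 0.035 for Hsp90aa1, 0.027 for Hspd1 and 0.037 for Hspe1. With equal array medians it was 0.0015 for Hsp90aa1 and 0.0018 for Hspd1, and with array weights 0.028 for Hspe1. Without replicate 1 of both groups, chosen after seeing the data, it was 0.0074 for Hsp90aa1, 0.032 for Hspd1 and 0.022 for Hspe1. Leaving out 1 array gave log2 fold changes from -0.0054 to 0.38 for Hspa1a, from -0.17 to 0.060 for Hspa1b, from -0.039 to 0.14 for Dnajb1, from -0.058 to 0.013 for Hspa8, from -0.039 to 0.025 for Hsp90aa1, from -0.026 to 0.056 for Hspd1, from -0.041 to 0.024 for Hspe1, from -0.063 to 0.10 for Hspa5. The cause of these changes was not tested. Of 176 list medians 3 moved beyond their spread. The heat shock factor median was -0.12 with the mean over probe sets, and the small heat shock protein median was 0.076 with the Gapdh covariate and from -0.069 to 0.036 when 1 array was left out, the highest without elevated pressure replicate 1. Of the 6 genes nearest to Hspa1b, 0 were again among the nearest 6 by Spearman correlation, 3 by deviations from group means and 0 without the 2 arrays farthest from the median, and of those nearest to Hspa5, 2 by Spearman correlation and 2 without such arrays.

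Equal replicate numbers were tried as a pairing. Deviations of same-numbered arrays correlated at -0.05, 0.18, -0.08, 0.13 and -0.06 over all probe sets, so not every pair was above 0.1 and the numbers were not taken as a pairing. The labels do not settle whether they mark the same mice. With the replicate block as a fixed effect 451 genes reached an unadjusted p under 0.05 and 0 were called, and with the block as a random effect 404 and 0.

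The number of arrays, 5 in each group, limits the precision. For Hspa1a the interval reached 1.72-fold.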
